A study of Homo sapiens with 18 samples.

Results

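Expression of 10 genes of the Notch pathway was measured by RNA sequencing in human cholangiocarcinoma cell lines in which RNF213 had been knocked down. They are the receptors NOTCH1, NOTCH2 and NOTCH3, the ligands JAG1 and JAG2, the coactivator MAML2, and the HES and HEY family genes HES1, HES2, HES4 and HEY1. The members were chosen by gene name with earlier results of these data known, so the share of members called is a description. All 10 were found among the 36601 genes of the files, and all 10 passed the filter on low counts in every comparison. The study covered 18 libraries: each of the lines HuCCT1, YSCCC and KKU-100 carried hairpin 2 directed at RNF213 (shRNF213) or else a control hairpin (shControl), with 3 biological replicates per group. The labels give the genotype of the shControl cells as wild type and that of the shRNF213 cells as RNF213 knockdown. All cells were stable lines made with a lentivirus system, so every group, shControl included, carries an integrated hairpin vector. Whether a line was 1 clone is not stated, and with 1 hairpin per target an effect of RNF213 loss cannot be told apart from an effect of that hairpin sequence. HuCCT1 and YSCCC grew in RPMI and KKU-100 in Ham's medium, both with 10% serum, so that the medium and the line cannot be told apart in any contrast with KKU-100.

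Notch receptors are single-pass membrane proteins that are activated by ligands of the Jagged and Delta families on a neighbouring cell. Ligand binding lets ADAM proteases and then gamma-secretase cut the receptor, and the freed intracellular domain joins the DNA-binding protein RBPJ and a Mastermind-like coactivator at target genes. Best known among these targets are the HES and HEY genes, which encode transcriptional repressors of the basic helix-loop-helix class. In the liver, Jagged1 and Notch2 are required for bile duct formation, and Notch receptors are active in many bile duct cancers. RNF213 encodes a large cytoplasmic protein with ubiquitin ligase and ATPase activity.

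RBPJ recognises the letters TGGGAA, and the stretch before the start site is shown for the 3 HES genes among the members, whose levels are given further on. The sequences are the 120 bases before the RefSeq start site on build GRCh38.p14, printed 5′ to 3′ on the strand of the gene, with TGGGAA in capitals.
HES1, chr3:194136028-194136147, plus strand: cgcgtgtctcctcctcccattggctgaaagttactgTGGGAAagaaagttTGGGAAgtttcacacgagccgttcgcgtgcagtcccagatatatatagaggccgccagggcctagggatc
HES4, chr1:1000098-1000217, minus strand: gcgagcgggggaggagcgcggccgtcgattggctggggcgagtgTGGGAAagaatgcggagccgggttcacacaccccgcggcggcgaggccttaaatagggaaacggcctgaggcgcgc
HES2, chr1:6419920-6420039, minus strand: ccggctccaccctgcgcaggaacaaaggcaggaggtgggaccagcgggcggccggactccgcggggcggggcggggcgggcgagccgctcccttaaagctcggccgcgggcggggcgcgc
Promoter windows of 300 bases (250 before and 50 after the start site) were found for 9 of the 10 members. TGGGAA or its complement TTCCCA was present in 2 of them. HES1 held it at 84 and at 70 bases before the start, and HES4 held it at 76 bases before the RefSeq start. The longer form GTGGGAA, with its complement TTCCCAC, occurred once in HES1 and once in HES4. Among all 35116 promoter windows, 24.0% held TGGGAA or its complement and 6.25% held the longer form, so the presence of these letters is common. HES2 and the other 6 matched members did not have these letters in the window, which says nothing of RBPJ binding elsewhere. For 4 of the 9 genes the outer end of the gene in the files lies outside the RefSeq start, by 31117 bases in NOTCH2, 4751 in HES2, 75 in HES4 and 48 in JAG2, so these windows belong to 1 of the possible start sites. The TGGGAA of HES4 covers positions 1000168 to 1000173 of chromosome 1 and thus lies across the outer end of the gene in the files, at 1000172.

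Libraries held between 21056732 and 25502097 counts, and levels are given as CPM (counts scaled to library size with TMM factors) or, where genes are compared with each other, as TPM, which also accounts for transcript length. Some replicates stood apart. The summed CPM of 10 interferon-stimulated genes was 5318 in the shRNF213 and 5536 in the shControl library of HuCCT1 replicate 2, against 338 to 697 in the other HuCCT1 libraries. In YSCCC replicate 3 the summed CPM of 10 endoplasmic reticulum stress genes was 4642 with shRNF213 and 6142 with shControl, against 2200 to 2464 in the other YSCCC libraries. The 6 cholangiocyte markers summed to between 4035 and 5780 CPM in HuCCT1 and between 1330 and 2195 CPM in YSCCC, but to between 220 and 489 CPM in KKU-100. KKU-100 libraries had KRT19 at 0 to 0.179 CPM and EPCAM at 0 to 0.133 CPM, although KRT7 and SOX9 were present, so that defining bile duct markers were at or near 0 in that line. Of the 3 endothelial markers tested in YSCCC, CDH5 (log2 fold change 0.58) and PECAM1 (1.12) were higher with shRNF213. CDH5, the most abundant of the list, measured 81.6, 94.5 and 26.9 CPM with shRNF213 in YSCCC, against 74.9, 58.2 and 13.9 CPM with shControl, and at most 0.609 CPM in the other lines. PECAM1 measured 1.62 to 3.82 CPM with shRNF213 and 0.981 to 1.82 CPM with shControl, VWF stayed below 1 CPM, and KDR was at 0 in the shControl libraries. The 6 endothelial markers summed to between 29.0 and 98.6 CPM with shRNF213 and between 15.1 and 77.5 CPM with shControl. Of the other marker and state lists in YSCCC, 2 of 4 tested fibroblast and smooth muscle genes were lower, 1 of 5 leukocyte genes and 1 of 10 endoplasmic reticulum stress genes were lower, and 2 of 10 interferon genes and 1 of 2 hepatocyte genes were higher, beside 8.25% of all genes called in that line. Without replicate 1, CDH5, COL3A1, SERPINA1 and HERPUD1 were still called among these lists, and without replicate 2, COL3A1, SERPINA1, ITGAM, IFI44 and HERPUD1 were. Without the replicate block 0 genes of the whole table were called in YSCCC. In KKU-100, 1 of 10 interferon genes (IFIT2) was lower and no other gene of these lists was called, and in HuCCT1 none was. Other settings changed this. In HuCCT1, IFIT2 was called by DESeq2, with no filter on low counts and without any 1 replicate, and IFI6 and DDIT3 were called without replicate 3. In KKU-100, DESeq2 also called IFIT1, IFIT3, SOX9 and DDIT3, while IFIT2 was not called without replicate 3 or without the replicate block. Without replicate 2, KRT7, COL3A1, DCN and IFIT3 were called in KKU-100 as well, and IFIT3 also with no filter on low counts. The part of these genes in the Notch gene results was not tested.

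RNF213 itself was lower with shRNF213 in 9 of 9 pairs of libraries with the same replicate number. In HuCCT1 it measured 277, 423 and 284 CPM with shRNF213, against 395, 1261 and 430 CPM with shControl. In YSCCC it measured 152, 237 and 215 CPM with shRNF213, against 430, 382 and 529 CPM with shControl. In KKU-100 it measured 568, 651 and 556 CPM with shRNF213, against 1260, 1004 and 1227 CPM with shControl. The groups did not overlap in YSCCC and KKU-100, while in HuCCT1 the highest shRNF213 library lay above the lowest shControl library. The mean log2 ratio over the pairs was -1.01 ± 0.41 (SD, n = 9; exact sign-flip permutation test, two-sided, p = 0.00391, the smallest p that 9 pairs allow). In the fits of single lines, the fall passed the threshold in YSCCC (adjusted p = 0.000307) and KKU-100 (0.0462) and did not in HuCCT1 (0.136). The HuCCT1 value passed it when any 1 replicate was left out (0.0339, 0.000992 and 9.4e-07 without replicates 1, 2 and 3), and the KKU-100 value missed it without replicate 1 (0.0663) or 3 (0.251). Without the replicate block it passed in no line (0.883 in YSCCC and 0.362 in KKU-100).

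In YSCCC, 3 of the 10 Notch genes changed with shRNF213: the receptor gene NOTCH1 and the repressor gene HES2 fell, and the coactivator gene MAML2 rose. HES2 had the largest change of the members, to 0.438 times its shControl level. NOTCH1 fell to 0.677 times and MAML2 rose to 1.37 times. The share of all tested genes called in YSCCC was 8.25% (1397 of 16932, edgeR's quasi-likelihood test with the replicate number as a block, Benjamini-Hochberg adjusted p below 0.05). The median log2 fold change of the members was -0.25, beside 0.0055 over all genes tested.

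NOTCH1 (chromosome 9, 136494433 to 136546048, minus strand) was the receptor that moved. Its level in YSCCC was 32.2, 29.5 and 60.6 CPM with shRNF213 in replicates 1, 2 and 3, against 54.1, 40.7 and 84.4 CPM with shControl. Replicate 3 had the highest level in both groups, so the groups overlap as a whole although each shRNF213 library lay below its own shControl library. The log2 fold change was -0.56 ± 0.10 (SE, n = 3 pairs, edgeR adjusted p = 0.00582). The change within pairs ranged over 0.28 on the log2 scale, whereas the means of the pairs ranged over 1.04. Without replicate 3, the one that stood apart in endoplasmic reticulum stress genes, NOTCH1 had a log2 fold change of -0.61 with an adjusted p of 0.000758 and HES2 one of -1.17 with an adjusted p of 0.00087.

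HES2 (chromosome 1, 6412418 to 6424670, minus strand) encodes a HES family repressor that is less studied than HES1. In YSCCC it measured 2.73, 2.73 and 3.50 CPM with shRNF213, against 8.68, 4.23 and 8.22 CPM with shControl. All 3 shRNF213 libraries lay below all 3 shControl libraries, and the counts behind them were 70, 71 and 97 with shRNF213 and 210, 110 and 226 with shControl. The log2 fold change was -1.19 ± 0.21 (SE, n = 3 pairs, edgeR adjusted p = 0.00454).

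MAML2 (chromosome 11, 95976598 to 96343195, minus strand) encodes a Mastermind-like protein that bridges the Notch intracellular domain and histone acetyltransferases. It measured 41.1, 48.5 and 34.0 CPM with shRNF213 in YSCCC, against 36.7, 32.5 and 22.1 CPM with shControl. It was higher in each pair, but replicate 3 with shRNF213 lay below replicate 1 with shControl. The log2 fold change was 0.45 ± 0.12 (SE, n = 3 pairs, edgeR adjusted p = 0.0313). Without replicate 1, none of the YSCCC calls held (adjusted p = 0.11 for NOTCH1, 0.097 for HES2 and 0.0754 for MAML2), and MAML2 also missed the threshold without replicate 2 (0.186) or replicate 3 (0.0586). Without the replicate block the fold changes of the 3 genes were close to the paired ones (-0.55, -1.24 and 0.44) and their adjusted p-values were 0.999, 0.921 and 0.999.

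**Figure D1:**
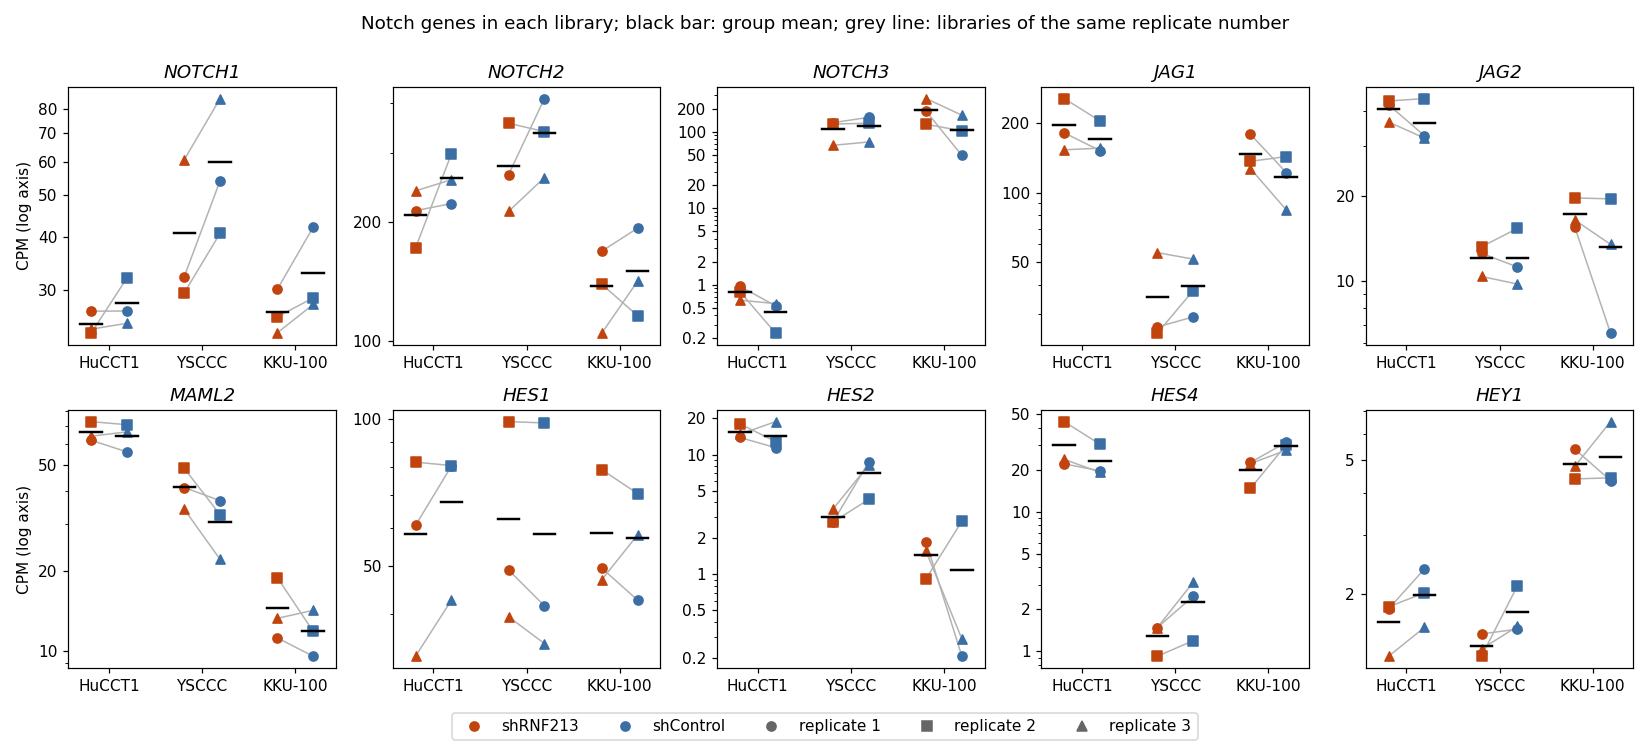
CPM (log axis) of the 10 Notch genes in each of the 18 libraries, with shRNF213 in orange left of shControl in blue for each line, a marker shape per replicate number, a grey line joining libraries of the same number and a black bar at the group mean (n = 3). In YSCCC, all 3 pairs of NOTCH1 and HES2 run lower with shRNF213 and all 3 pairs of MAML2 run higher, while HES1 follows the replicate number.

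In HuCCT1 none of the 10 Notch genes was called, in a comparison in which 0.14% of all tested genes were called (22 of 15747). At an unadjusted p below 0.05 there were 4 members in edgeR, beside 1743 of the 15747 genes, and DESeq2 called 0 members. In KKU-100 none of the 10 was called either, where 0.443% of all tested genes were called (66 of 14915). There 3 members had an unadjusted p below 0.05, beside 2391 of the 14915 genes, and DESeq2 called 0 members. The median log2 fold change of the members was 0.09 in HuCCT1, beside -0.0015 over all genes tested, and 0.15 in KKU-100, beside 0.00017.

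NOTCH3 (chromosome 19, 15159038 to 15200995, minus strand), a receptor best known from vascular smooth muscle, had the largest estimate among the receptors outside YSCCC. In KKU-100 it measured 185, 125 and 270 CPM with shRNF213, against 48.9, 103 and 164 CPM with shControl. It was higher with shRNF213 in all 3 pairs, and the groups overlap because replicate 2 with shRNF213 lay below replicate 3 with shControl. The log2 fold change was 0.96 ± 0.27 (SE, n = 3 pairs, edgeR adjusted p = 0.168). Leaving out 1 replicate gave 0.51 to 1.30, with an edgeR adjusted p from 0.0181 (without replicate 2) to 0.370. In HuCCT1 the gene was near the limit of detection, at 0.962, 0.819 and 0.631 CPM (24, 17 and 15 counts) with shRNF213 and 0.531, 0.234 and 0.570 CPM (13, 5 and 14 counts) with shControl. The shRNF213 libraries of HuCCT1 were all above the shControl ones (log2 fold change 0.83 ± 0.37, SE, n = 3 pairs, edgeR adjusted p = 0.451). In YSCCC the levels were 131, 126 and 66.3 CPM with shRNF213 and 154, 129 and 73.3 CPM with shControl, lower in all 3 pairs by a log2 fold change of -0.14 ± 0.09 (SE, n = 3 pairs, edgeR adjusted p = 0.415).

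HES4 (chromosome 1, 998962 to 1000172, minus strand) encodes another HES family repressor, and its estimates pointed in different directions between lines. In HuCCT1 it measured 22.1, 44.4 and 23.8 CPM with shRNF213, against 19.7, 30.5 and 19.2 CPM with shControl. In KKU-100 it measured 22.6, 14.7 and 22.2 CPM with shRNF213, against 31.5, 30.3 and 27.6 CPM with shControl, with no overlap. In YSCCC the gene was weakly expressed, at 1.48, 0.922 and 1.48 CPM with shRNF213 and 2.48, 1.19 and 3.13 CPM with shControl. All pairs were higher in HuCCT1 and all pairs were lower in KKU-100 and in YSCCC. The log2 fold changes were 0.34 ± 0.11 in HuCCT1 (SE, n = 3 pairs, edgeR adjusted p = 0.332), -0.61 ± 0.17 in KKU-100 (0.159) and -0.77 ± 0.25 in YSCCC (0.082), none past the threshold. With no filter on low counts, HES4 and NOTCH2 were called in YSCCC as well (adjusted p = 0.031 and 0.0293), which made 5 members.

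HES1 (chromosome 3, 194136148 to 194138732, plus strand), the HES gene most widely used as a readout of Notch signalling, varied more between replicates than between hairpins. In YSCCC it measured 49.2, 99.0 and 39.4 CPM with shRNF213, against 41.5, 98.4 and 34.8 CPM with shControl. In HuCCT1 it measured 60.7, 81.8 and 32.7 CPM with shRNF213, against 80.2, 80.5 and 42.6 CPM with shControl. In KKU-100 it measured 49.6, 79.0 and 46.9 CPM with shRNF213, against 42.7, 70.5 and 58.0 CPM with shControl. The means of the pairs ranged over 1.12, 1.41 and 0.70 on the log2 scale in HuCCT1, YSCCC and KKU-100, while the mean change with the hairpin was -0.25, 0.14 and 0.03. Over all genes with a mean log2 CPM above 3, the median range was 0.29, 0.41 and 0.35 in the same lines. Their median absolute mean change was 0.097, 0.13 and 0.14. A range wider than the change is thus not particular to HES1. HES1 was not called in any line. In HuCCT1, leaving out 1 replicate gave -0.39 to -0.17, with an edgeR adjusted p from 0.0246 (without replicate 2) to 0.788.

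The Jagged ligands did not pass the threshold in any line. JAG1 (chromosome 20, 10637684 to 10673999, minus strand) measured 179, 137 and 127 CPM with shRNF213 in KKU-100, against 122, 143 and 84.3 CPM with shControl. Replicates 1 and 3 were higher with shRNF213 and replicate 2 was not, and the log2 fold change was 0.36 ± 0.15 (SE, n = 3 pairs, edgeR adjusted p = 0.289). JAG2 (chromosome 14, 105140982 to 105168824, minus strand) measured 15.5, 19.7 and 16.4 CPM with shRNF213 in KKU-100, against 6.52, 19.5 and 13.5 CPM with shControl. Its estimate of 0.49 ± 0.24 (SE, n = 3 pairs, edgeR adjusted p = 0.357) came mostly from replicate 1, whose log2 ratio was 1.24 against 0.01 and 0.29 in replicates 2 and 3. The same shControl library of replicate 1 held the lowest NOTCH3 level of KKU-100. In HuCCT1 and YSCCC the log2 fold changes of JAG1 were 0.18 and -0.22 and those of JAG2 were 0.17 and 0.01.

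Of the remaining values, NOTCH2 (chromosome 1, 119911553 to 120100779, minus strand), the receptor required for bile duct formation, had log2 fold changes of -0.31, -0.28 and -0.12 in HuCCT1, YSCCC and KKU-100, and 7 of 9 pairs were lower with shRNF213. NOTCH2 was not called in these fits (edgeR adjusted p = 0.442, 0.162 and 0.725). Its partial human copies NOTCH2NLA, NOTCH2NLB and NOTCH2NLC held 0 to 67 counts per library, but the treatment of reads shared between the copies is not known, so the NOTCH2 values are uncertain to an extent that was not tested. HEY1 (chromosome 8, minus strand) encodes a repressor of the HEY branch and was lower in 8 of 9 pairs, with log2 fold changes of -0.28, -0.32 and -0.05. It was not called in any line (edgeR adjusted p = 0.648, 0.494 and 0.935) and held 31 to 135 counts per library. The share of all genes with such pair counts was not determined. HES2 in KKU-100 could not be read, since it measured 1.86, 0.920 and 1.55 CPM with shRNF213 and 0.207, 2.78 and 0.290 CPM with shControl. There the pairs disagreed in direction, and the estimate of 0.88 ± 0.82 (SE, n = 3 pairs, edgeR adjusted p = 0.641) became 2.73 with an adjusted p of 0.0185 without replicate 2. HES2 in HuCCT1 (0.13) and MAML2 in HuCCT1 and KKU-100 (0.04 and 0.27) were not called.

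**Figure D2:**
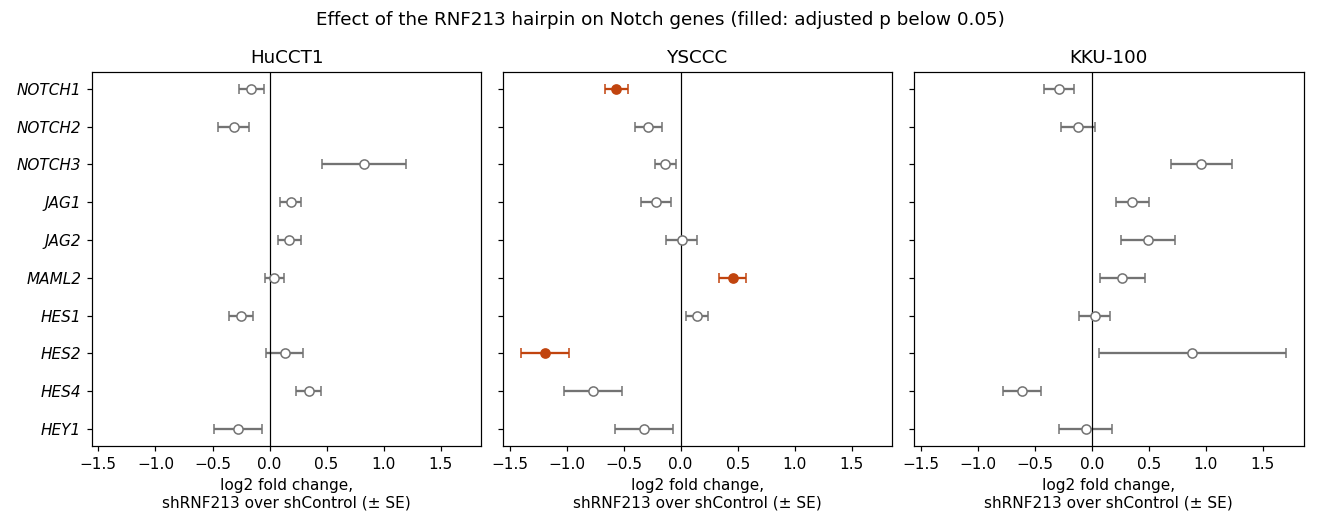
Log2 fold change of shRNF213 over shControl (± SE, n = 3 pairs) for the 10 Notch genes in each line, from edgeR with the replicate number as a block, with filled points for an adjusted p below 0.05. The filled points are NOTCH1, MAML2 and HES2 in YSCCC, and the widest interval is that of HES2 in KKU-100.

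Averaged over the lines, NOTCH1 was the 1 member of 10 called, in a comparison in which 2.9% of all tested genes were called (555 of 19143). It was lower with shRNF213 in 9 of 9 pairs, by a mean log2 fold change of -0.34 ± 0.07 (SE, n = 9 pairs, edgeR adjusted p = 0.0157), or 0.792 times the shControl level. In HuCCT1 it measured 26.7, 23.7 and 24.2 CPM with shRNF213, against 26.7, 32.0 and 25.0 CPM with shControl. In KKU-100 it measured 30.1, 25.9 and 23.8 CPM with shRNF213, against 42.1, 28.7 and 27.7 CPM with shControl. The log2 ratio within pairs ran from -0.75 in YSCCC replicate 1 to -0.0015 in HuCCT1 replicate 1, which is no visible difference. The share of all genes that ran the same way in every pair was not determined. The call was lost without HuCCT1 replicate 2 (adjusted p = 0.0556), without YSCCC replicate 1 (0.0705) and without the replicate block (0.900). HES4 (-0.35, adjusted p = 0.0795), MAML2 (0.26, 0.0996) and NOTCH3 (0.55, 0.193) were not called by edgeR; DESeq2 called NOTCH1, NOTCH3 and HES4.

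None of the 10 members differed past the threshold in its response between lines. The shares of all tested genes called were 0.047% for HuCCT1 minus YSCCC, 0.235% for HuCCT1 minus KKU-100 and 2.63% for YSCCC minus KKU-100. At an unadjusted p below 0.05 there were 5, 1 and 3 members in these differences, beside 1690, 2391 and 3477 of all 19143 genes. DESeq2 called 1 member in each difference. For NOTCH1 the difference was 0.40 ± 0.16 on the log2 scale for HuCCT1 minus YSCCC (SE, edgeR adjusted p = 0.484) and -0.28 ± 0.16 for YSCCC minus KKU-100 (0.404). For HES2 the difference was 1.33 ± 0.58 for HuCCT1 minus YSCCC (0.537). The call of NOTCH1 and HES2 in YSCCC and not in the other lines is therefore not a shown difference between lines.

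Beyond the members, the pathway was described with 71 genes in 9 roles, 10 of which are the members. These lists too were chosen with earlier results of these data known. In YSCCC, 11 of 66 tested pathway genes were called (16.7%, beside the 8.25% of all genes), 4 higher and 7 lower, with a median log2 fold change of -0.08. The count was 0 without replicate 1, 3 without replicate 2, 13 without replicate 3 and 0 without the replicate block. In HuCCT1 0 of 63 were called and in KKU-100 0 of 61, with 7 and 13 at an unadjusted p below 0.05 in edgeR. Over all genes, 1743 of 15747 and 2391 of 14915 had such an unadjusted p. DESeq2 called 1 pathway gene in HuCCT1 and 0 in KKU-100; leaving out KKU-100 replicate 2 gave 3, and leaving out HuCCT1 replicate 2 or 3 gave 2. The 8 called genes of YSCCC that are not members fall into several roles. FURIN, the protease that first cleaves the maturing receptor, was the 1 of 9 cleavage genes called and fell by 0.40 on the log2 scale (adjusted p = 0.0243). None of the 4 tested glycosylation genes and none of the 4 tested ligands was called, and NOTCH1 was the 1 of 4 receptors.

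NEURL1, a ubiquitin ligase that drives ligand endocytosis, was the 1 of 7 endocytosis genes called. It measured 2.11, 0.307 and 7.33 CPM with shRNF213, against 4.46, 1.88 and 12.3 CPM with shControl, and fell by 1.17 on the log2 scale (adjusted p = 0.0146). The spread between replicates was wide and the groups overlap, but every pair was lower. Of the 8 genes of the nuclear activation complex 2 rose, namely MAML2 and the acetyltransferase gene KAT2B. KAT2B measured 32.8, 33.3 and 17.2 CPM with shRNF213, against 24.5, 23.8 and 8.98 CPM with shControl (log2 fold change 0.60, adjusted p = 0.013). Of the 11 corepressor genes 2 rose, the Groucho family gene TLE2 (0.43, adjusted p = 0.0226) and the deacetylase gene HDAC2 (0.41, 0.0184).

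HDAC2 measured 194, 221 and 193 CPM with shRNF213, against 155, 147 and 156 CPM with shControl, and TLE2 measured 69.8, 81.7 and 71.2 CPM with shRNF213, against 59.3, 60.2 and 46.8 CPM with shControl. Neither gene's groups overlap. When any 1 replicate was left out, TLE2 missed the threshold (edgeR adjusted p = 0.0623 to 0.107). For HDAC2 the adjusted p then ran from 0.0049 to 0.144. Of the 11 tested genes that dampen or turn over the signal 3 fell. These were DLK2, a Delta-like membrane protein without the usual receptor-activating domain (log2 fold change -0.70; not called by DESeq2, adjusted p = 0.0621), DTX3, a member of the Deltex ubiquitin ligase family (-0.69), and AAK1, a kinase of clathrin adaptors (-0.39). AAK1 measured 169, 173 and 213 CPM with shRNF213, against 257, 229 and 236 CPM with shControl, with no overlap. Of the 8 tested HES and HEY genes HES2 was the 1 called, and the median of the role was -0.38. In the mean over lines, 1 of 68 pathway genes was called, which was NOTCH1; DESeq2 called 6, and edgeR called 4 without KKU-100 replicate 2 and 2 without KKU-100 replicate 3. In the differences between lines 0 of 68 were called by edgeR, with 11, 11 and 15 at an unadjusted p below 0.05, and DESeq2 called 1, 1 and 3. Over all 19143 genes, 1690, 2391 and 3477 had such an unadjusted p.

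**Figure D3:**
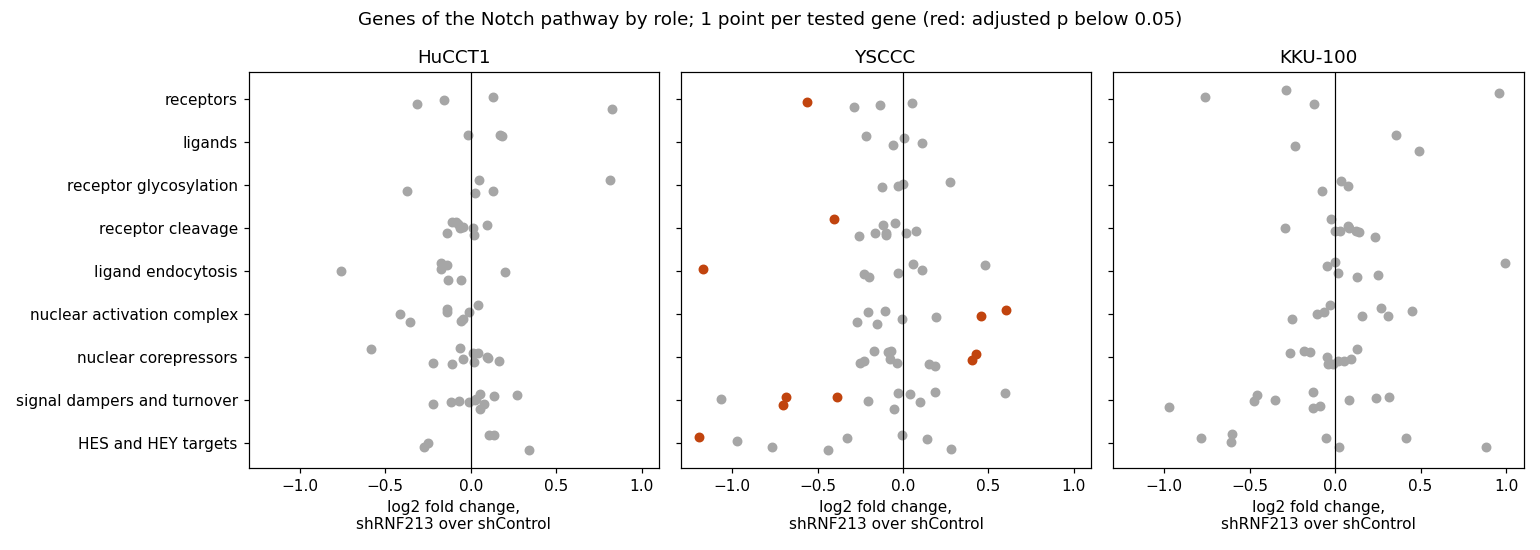
Log2 fold change of shRNF213 over shControl for each tested gene of the 71 pathway genes, by role and line, in red where the edgeR adjusted p was below 0.05. Red points occur in YSCCC, 11 in all, on both sides of 0, and none occurs in HuCCT1 or KKU-100.

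Without RNF213 knockdown, most of the members differed between the lines. Between the 9 shControl libraries, 6 of 10 members differed between HuCCT1 and YSCCC (58.4% of all tested genes), 6 of 10 between HuCCT1 and KKU-100 (57.4%) and 7 of 10 between YSCCC and KKU-100 (60.7%). The members' shares are thus near that of all genes. The libraries of different lines do not share a pairing, and these fits have no block.

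NOTCH3 was nearly absent from HuCCT1, where the shControl libraries had 0.445 ± 0.18 CPM (SD, n = 3), against 119 ± 41.2 CPM in YSCCC and 105 ± 57.6 CPM in KKU-100. The log2 fold change was -7.99 for HuCCT1 versus YSCCC (edgeR adjusted p = 3.4e-06) and -7.84 for HuCCT1 versus KKU-100 (2.5e-06), while YSCCC and KKU-100 did not differ past the threshold (0.15, 0.766). NOTCH1 was lower in HuCCT1 than in YSCCC (-1.07, adjusted p = 0.00696) and higher in YSCCC than in KKU-100 (0.84, 0.0218). The second call was lost without YSCCC replicate 3 or without KKU-100 replicate 2 or 3. NOTCH2 was higher in HuCCT1 than in KKU-100 (0.79, 0.0145) and in YSCCC than in KKU-100 (1.14, 0.00188); the HuCCT1 call was lost without HuCCT1 replicate 2 or KKU-100 replicate 2 or 3.

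On the TPM scale, which allows genes to be compared, NOTCH2 made up 84.8 ± 1.4% of the summed receptor TPM in HuCCT1 with shRNF213 and 86.0 ± 1.1% with shControl (SD, n = 3). In YSCCC it made up 57.9 ± 4.1% with shRNF213 and 58.2 ± 2.3% with shControl, and NOTCH3 most of the rest. In KKU-100 NOTCH3 made up 49.3% to 71.6% of receptor TPM in the shRNF213 libraries and 21.3% to 53.3% in the shControl libraries. These ranges overlap, and the shift follows the NOTCH3 levels given above, which did not pass the threshold. NOTCH1 contributed between 5.70% and 21.4% of receptor TPM over the 18 libraries.

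JAG1 was the main ligand in every group. Its mean was 76.7 TPM with shRNF213 and 69.6 TPM with shControl in HuCCT1, 16.1 and 18.1 TPM in YSCCC, and 57.8 and 45.8 TPM in KKU-100. The summed ligand TPM of the shControl libraries was 83.5 ± 10.4 in HuCCT1, 28.2 ± 7.7 in YSCCC and 53.4 ± 13.1 in KKU-100 (SD, n = 3). JAG1 was higher in HuCCT1 than in YSCCC (log2 fold change 2.14, edgeR adjusted p = 7.7e-05) and lower in YSCCC than in KKU-100 (-1.59, 0.000414). JAG2 was higher in HuCCT1 than in YSCCC (1.62, 0.00293) and than in KKU-100 (1.47, 0.00502). The summed receptor TPM was 57.5 ± 6.3 in HuCCT1, 124 ± 18.5 in YSCCC and 64.6 ± 11.7 in KKU-100, so that YSCCC had the highest receptor and the lowest ligand sum. These sums were not tested.

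**Figure D4:**
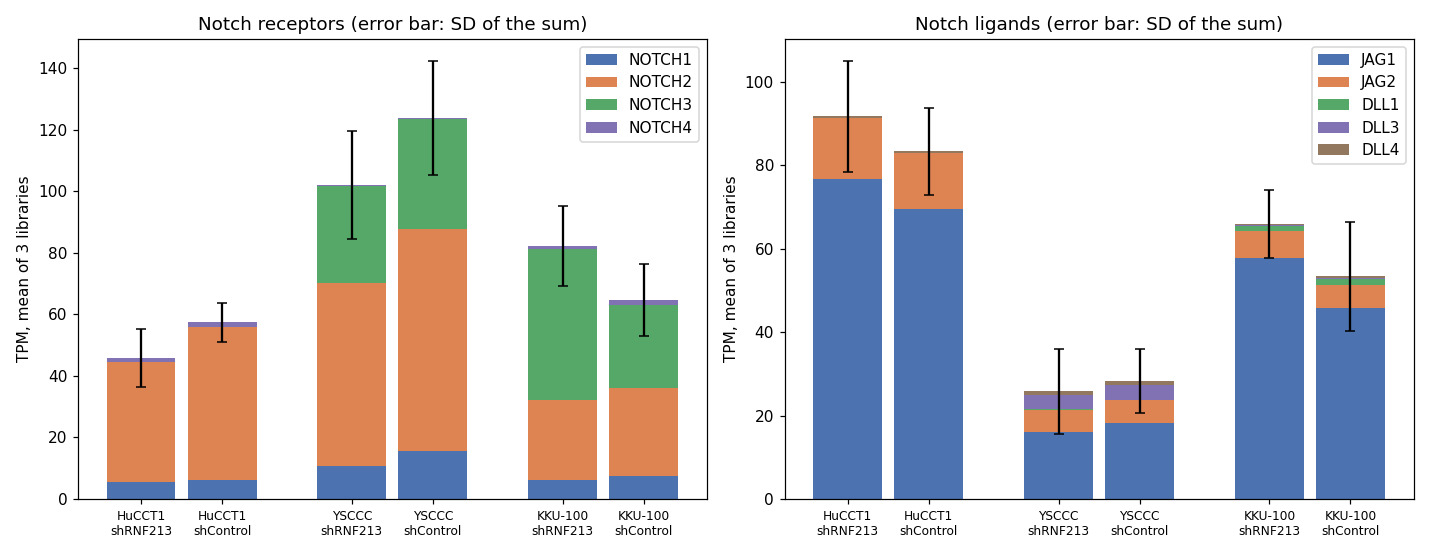
Mean TPM (n = 3 libraries) of the Notch receptors and of the Notch ligands, stacked, for shRNF213 and shControl in each line, with the SD of the sum as error bar. NOTCH2 and NOTCH3 make up most of the receptor TPM in YSCCC and KKU-100, NOTCH3 is nearly missing from HuCCT1, and JAG1 makes up most of the ligand TPM in each group.

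MAML2 was highest in HuCCT1, with 64.5 ± 7.7 CPM in the shControl libraries, against 30.4 ± 7.5 CPM in YSCCC and 11.8 ± 2.3 CPM in KKU-100 (SD, n = 3). All 3 contrasts passed the threshold, with log2 fold changes of 1.12 for HuCCT1 versus YSCCC (edgeR adjusted p = 0.00173), 2.45 for HuCCT1 versus KKU-100 (1.4e-05) and 1.33 for YSCCC versus KKU-100 (0.000596). The targets did not follow 1 order. HES4 was lowest in YSCCC, with log2 fold changes of 3.38 for HuCCT1 versus YSCCC (adjusted p = 2.5e-05) and -3.74 for YSCCC versus KKU-100 (1.1e-05). HES2 ran from HuCCT1 (14.4 ± 3.9 CPM) through YSCCC (7.04 ± 2.5 CPM) to KKU-100 (1.09 ± 1.5 CPM), and the contrasts of KKU-100 with HuCCT1 (3.70, adjusted p = 0.00233) and with YSCCC (2.63, 0.0122) passed the threshold. The KKU-100 libraries behind them held 4, 62 and 6 counts, and without replicate 2 of KKU-100 the log2 fold changes were 5.83 and 4.79, so the size of these differences rests on that library.

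HEY1 was higher in KKU-100, at 5.10 ± 1.2 CPM, than in HuCCT1 (1.99 ± 0.39 CPM, log2 fold change -1.35 for HuCCT1 versus KKU-100) and YSCCC (1.76 ± 0.31 CPM, -1.56 for YSCCC versus KKU-100). HES1 passed the threshold in none of the contrasts (log2 fold changes of 0.25, 0.25 and 0.0031), with 67.8 ± 21.8 CPM in HuCCT1, 58.2 ± 34.9 CPM in YSCCC and 57.1 ± 13.9 CPM in KKU-100. Leaving out YSCCC replicate 2 gave 0.83 with an adjusted p of 0.0484 for HuCCT1 versus YSCCC. On the TPM scale HES1 was the highest of all HES and HEY genes, at a mean of 84.9 TPM over the 18 libraries.

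Among the pathway genes that are not members, some had 0 counts in the shControl libraries of a line. HEYL had 0 counts in all HuCCT1 and KKU-100 libraries, while the YSCCC shControl libraries had 7.93, 7.57 and 10.5 CPM, at least 68.9-fold and 62.1-fold above the level of 3 counts per library in these lines. DTX3 had 0 counts in the KKU-100 shControl libraries, and was at least 212-fold higher in HuCCT1 and 54.4-fold higher in YSCCC by the same floor. DLL1, a Delta-like ligand, had 0 counts in the HuCCT1 shControl libraries and was at least 20.7-fold higher in KKU-100. LFNG, the Fringe glycosyltransferase that alters which ligands a receptor answers to, was higher in HuCCT1 than in YSCCC (log2 fold change 3.85, edgeR adjusted p = 0.000408) and KKU-100 (5.91, 7.0e-05). The shControl libraries of HuCCT1 held 208, 157 and 556 counts of LFNG, against 21, 40 and 9 counts in YSCCC libraries and 5, 3 and 5 counts in KKU-100 libraries. The log2 fold changes were 3.15 and 5.21 without HuCCT1 replicate 3, and the HuCCT1 versus YSCCC value was 4.43 without YSCCC replicate 2.

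The genes whose log2 CPM, taken as the deviation from each line's mean, moved most like each member over the 18 libraries were sought among 10590 genes averaging 10 CPM or more. For NOTCH1 they were POLR3D (Pearson r = 0.96), C7orf26 (0.93) and PRDM4 (0.93). For NOTCH2 they were EP300 (0.91), DIP2B (0.90) and ARID2 (0.89), of which EP300 encodes an acetyltransferase of the Notch activation complex. For NOTCH3 the closest was DNAJC18 (0.94), for JAG1 SRA1 (0.91), for JAG2 RASSF7 (0.95), for MAML2 FGD5-AS1 (0.87), for HES1 ATP13A1 (0.82) and for HES4 TBL2 (0.83). For HES2 the closest was GPC4 (0.84) and for HEY1 TPP1 (0.80), each among 10591 genes. Between the members the lowest value was that of NOTCH1 with MAML2, at -0.76. These values are a description over 18 libraries that share lines and replicate numbers.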

How the data were processed

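Messenger RNA of 18 libraries was sequenced after library construction with a TruSeq mRNA kit from 750 ng of RNA, per the labels. Per the submitters' processing notes the build was GRCh38 and the tools included HTSeq 0.6.1p1 and StringTie 2.1.6 after alignment with STAR 2.5.1b. The tool behind each column and whether counting used strand were not given in the sources used here. The authors deposited a raw count and a TPM value per gene, per the file headers, and 1 file covers 1 library. Other columns were not used. Library totals of 21056732 to 25502097 counts set the precision of low genes, and intervals cover no more than the spread between these libraries.

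Raw counts were tested by the quasi-likelihood method of edgeR 4.0.16 (TMM scaling, filterByExpr with a minimum count of 10 and a minimum total of 15) in R 4.3.3, two-sided, with Benjamini-Hochberg adjustment over all genes tested and 0.05 as threshold. Each line was fitted alone with the replicate number as a block. A fit of all 18 libraries with 9 pair blocks gave the mean effect and the differences between lines, and the 9 shControl libraries were fitted without a block for levels between lines. Standard errors were derived from the fitted fold change and its F statistic. The numbers were taken to pair the shRNF213 and shControl libraries of a line. Deviations from the group means of same-numbered libraries correlated at 0.406 to 0.902, all above the minimum of 0.1. At least 10137 genes with a mean log2 CPM above 3 were used. Each shRNF213 library correlated most with the shControl library of its own number. Some differently numbered libraries passed the minimum too. These were YSCCC replicates 1 and 2 (0.658 and 0.517) and KKU-100 shRNF213 replicate 2 with shControl replicate 3 (0.122). In YSCCC the check thus separates replicates 1 and 2 less clearly than replicate 3. Same-numbered libraries of different lines did not pass (-0.317 to 0.0511). Deposited TPM was used for levels between genes. Alternatives were no block (a block for levels between lines), DESeq2's size factors in edgeR, DESeq2 1.42.0, no filter on low counts, and leaving out each library or pair. The fits were tested on simulated data that held no replicate effects, so this did not test the use of the replicate block.

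The members and the gene lists were chosen with earlier results of these data known. Named genes were all members, RNF213, up to 8 called pathway genes per comparison by size of change, the highest gene of a role and the 3 genes most like each member. Promoter windows come from RefSeq on GRCh38.p14.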

Additional observations from a re-analysis of the deposited data

Results flagged for a closer look

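The estimated hairpin effects on HES4 and NOTCH3 pointed in opposite directions between lines in every pair of libraries. Both genes were picked from the members because of this pattern, so the agreement of their pairs is a description and not a test. The share of all genes with such a pattern was not determined. HES4 was higher with shRNF213 in all 3 HuCCT1 pairs and lower in all 3 pairs of YSCCC and of KKU-100. The difference of the effects was 1.12 ± 0.27 on the log2 scale for HuCCT1 minus YSCCC (SE, edgeR adjusted p = 0.153) and 0.95 ± 0.21 for HuCCT1 minus KKU-100 (0.0815). DESeq2 called both differences (adjusted p = 0.0212 and 0.00969), and so did edgeR with no filter on low counts (0.0496 and 0.0199). Over all alternatives the adjusted p ran from 0.0212 to 1.00 for the first and from 0.00969 to 1.00 for the second.

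NOTCH3 was lower with shRNF213 in all 3 YSCCC pairs and higher in all 3 pairs of HuCCT1 and of KKU-100. The difference was 0.96 ± 0.59 for HuCCT1 minus YSCCC (SE, edgeR adjusted p = 0.672), with at most 24 counts per library behind the HuCCT1 values, and -1.10 ± 0.30 for YSCCC minus KKU-100 (0.069). The difference for YSCCC minus KKU-100 was called by DESeq2 (0.0133) and with no filter on low counts (0.00396), and its adjusted p over all alternatives ran from 0.00396 to 0.915. None of these differences passed the threshold in edgeR with the filter and the replicate block.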

How the results depend on the processing

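Of 1030 values of single members under other settings, 955 kept their direction and their side of the threshold, 17 lost a call, 21 gained one and 37 changed sign, the last all among values that were not called. All 100 kept both with DESeq2's size factors. HES2 in KKU-100 and NOTCH3 in HuCCT1 rest on few counts per library. Without the replicate block the counts of genes called were 0 in HuCCT1, 0 in YSCCC, 2 in KKU-100, 28 for the mean effect and 0 for each difference between lines, and no member and no pathway gene was called in YSCCC (0) or in the mean (0). For the levels between lines, a replicate block, where the numbers pair no samples, left all counts within 1.5 times. DESeq2 called 116 genes in HuCCT1, 418 in KKU-100, 1054 for the mean, and 154, 303 and 1060 for the differences HuCCT1 minus YSCCC, HuCCT1 minus KKU-100 and YSCCC minus KKU-100, with 3 members in the mean and 1 in each difference, and with 1 pathway gene in HuCCT1, 6 in the mean and 1, 1 and 3 in the differences. With no filter on low counts, 117, 2160 and 193 genes were called in HuCCT1, YSCCC and KKU-100, 907 for the mean and 125, 273 and 894 for the differences, with 5 members in YSCCC and 1 in each difference, and with 1 pathway gene in HuCCT1, 3 in the mean and 1, 1 and 2 in the differences. The causes were not tested.

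Leaving out 1 replicate gave 18 to 335 genes and 0 to 1 members in HuCCT1, 313 to 1856 genes and 0 to 2 members in YSCCC, and 9 to 420 genes and 0 to 2 members in KKU-100. It gave 226 to 1011 genes and 0 to 2 members for the mean. For the differences HuCCT1 minus YSCCC, HuCCT1 minus KKU-100 and YSCCC minus KKU-100 it gave 0 to 44, 4 to 290 and 156 to 839 genes, and 0 to 0, 0 to 1 and 0 to 3 members. Pathway genes called then numbered 0 to 2 in HuCCT1, 0 to 13 in YSCCC, 0 to 3 in KKU-100, 0 to 4 in the mean, and 0 to 0, 0 to 1 and 0 to 3 in the differences.

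Signs changed outside these fits for JAG2 in YSCCC without the block (-0.0072), HES2 in the mean with DESeq2 (0.10) and HES1 in YSCCC versus KKU-100 with the block (-0.13). Leaving out 1 replicate gave log2 fold changes across 0 for MAML2 (-0.0059 to 0.091) and HES2 (-0.048 to 0.39) in HuCCT1, JAG2 in YSCCC (-0.070 to 0.12), and NOTCH2 (-0.32 to 0.036), HES1 (-0.060 to 0.19) and HEY1 (-0.22 to 0.15) in KKU-100. In the mean it did so for HES1 (-0.074 to 0.027) and HES2 (-0.40 to 0.56). For HuCCT1 minus YSCCC it did so for NOTCH2 (-0.21 to 0.21) and HEY1 (-0.14 to 0.18), and for HuCCT1 minus KKU-100 for NOTCH2 (-0.35 to 0.044), NOTCH3 (-0.49 to 0.31), JAG2 (-0.56 to 0.021) and HES2 (-2.61 to 0.30). For YSCCC minus KKU-100 it did so for NOTCH2 (-0.35 to 0.029), MAML2 (-0.012 to 0.40), HES1 (-0.048 to 0.21) and HES4 (-0.39 to 0.014). Among shControl levels it did so for HES1 in HuCCT1 versus YSCCC (-0.043 to 0.83), and in YSCCC versus KKU-100 for NOTCH3 (-0.20 to 0.61), JAG2 (-0.48 to 0.28) and HES1 (-0.57 to 0.31).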
